A study of Homo sapiens with 6 samples.

Results

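Molecular chaperones of the cytosol and mitochondria were examined in cultures of the established human embryonic kidney line HEK293T, grown without or with the nucleobase queuine. The group holds the genes of the HSP70 and HSP110 (HSPA, HSPH), HSP90, HSP60 and HSP10, small heat shock protein (HSPB) and J-domain (DNAJA, DNAJB, DNAJC) families, the TRiC chaperonin, the co-chaperones STIP1, AHSA1 and BAG3, and the heat shock factors HSF1 and HSF2. They were chosen by gene symbol alone, among protein-coding genes, leaving out the chaperones of the endoplasmic reticulum that the choice names (HSPA5, HSPA13, DNAJB9, DNAJB11, DNAJC3, DNAJC10) and names that end in L or hold a hyphen. This gave 75 of the 20044 protein-coding genes in a table of 63086 genes, and 61 of the 75 had enough counts to be tested. The symbol rule missed CCT6A, a TRiC subunit, and took in J-domain genes whose products sit outside the cytosol and mitochondria. Of these, 5 were listed (DNAJB12, DNAJB14, DNAJC1, DNAJC16 and DNAJC25), and the list is not complete.

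Messenger RNA was sequenced in 6 libraries. The 0Q group (3 libraries) is HEK293T cells kept in medium with 10% dialyzed fetal bovine serum, which depletes queuine, and the 100Q group (3 libraries) is the same 0Q cells given queuine. The labels are at odds on the dose: the characteristics of the queuine samples have 100 nM, but the protocol has 1 µM over 24 hours. The labels call the libraries of a group triplicates without saying whether they were separate cultures, so the p-values measure the spread between these libraries, which may be technical.

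Queuine is a micronutrient that is built into the anticodon of the transfer RNAs for tyrosine, histidine, asparagine and aspartate, giving queuosine. Chaperones bind newly made or damaged proteins: HSP70 works in cycles of ATP hydrolysis started by J-domain proteins and ended by nucleotide exchange factors such as HSP110, HSP90 takes over late folding states handed on by STIP1, and TRiC and HSP60 with its lid HSP10 enclose proteins in a chamber. When unfolded proteins build up, HSF1 forms trimers that bind heat shock elements, repeats of the unit nGAAn in alternating orientation, and raises the transcription of many of these genes, while several members such as HSPA8, HSP90AB1 and TRiC are abundant without stress.

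Library totals ranged from 4023956 to 11398835 estimated counts, and both ends of that range were 100Q libraries. Levels are given as CPM, counts scaled to the library total, after TMM scaling, and levels of different genes are compared only as CPM per kilobase of transcript. The members together took 1.27% to 1.39% of each library. Levels of the cell type markers are the exception and are CPM of the library total without TMM scaling. Of 6 genes typical of HEK293T cells, summed levels were 1101 to 1132 CPM in 0Q and 993 to 1078 CPM in 100Q. Most of that sum was VIM, at 691 to 781 CPM over the 6 libraries, and PAX2 was at 1.71 to 7.85 CPM. The 9 markers of blood, liver, fibroblast and endothelial cells summed to 32.5 to 40.0 CPM in 0Q and 35.4 to 36.3 CPM in 100Q, most of it COL1A1, and PTPRC, CD3E and CDH5 were at 0 in every library.

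No chaperone gene passed the test between 100Q and 0Q. With edgeR's quasi-likelihood test and a Benjamini-Hochberg adjusted p under 0.05 over all 14905 tested genes, 0 of 61 members were called, and the smallest adjusted p of a member was 0.987. Across all genes 2 were called, or 0.0134%. The 95% interval of the fold change lay within 1.5-fold in either direction for 50 of the 61 members and within 2-fold for 57. The values that follow are differences in level described beside their spread. In RNA of whole cultures, a lower level in every cell and a lower share of cells with that level cannot be told apart.

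The members sat slightly lower in 100Q. Of the 61, 43 had a negative log2 fold change (70.5%), against 50.6% of all tested genes. Their median log2 fold change was -0.042, against -0.0027 for all tested genes. At an unadjusted p under 0.05 there were 3 members on the lower side (HSPA8, HSPE1 and STIP1), where 2.23% of all tested genes fell, and 1 on the higher side (DNAJC4), where 2.49% fell. DESeq2 gave 6 members and limma-voom 7 at that threshold, and edgeR gave 2 without 0Q replicate 2 or without 100Q replicate 3. The 3 values of 100Q lay wholly below the 3 of 0Q for 9 members, or 14.8%, against 5.2% of all tested genes, and wholly above for 2 members, against 5.39%. With a correction for GC content and transcript length, 6 members lay wholly below. Shares of all tested genes are given for the main edgeR fit only, so counts under other settings have no background beside them.

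The abundant members leaned furthest. Among the 26 members with a mean of at least 100 CPM, 22 were negative with a median of -0.079, and 8 had 100Q values wholly below. Genes of that level in general also leaned downward, 1203 of 1994 (60.3%) with a median of -0.023, and 131 of them (6.57%) lay wholly below. Among the 35 members under 100 CPM, 21 were negative, with a median of -0.029.

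The lean was larger in 2 of the 3 queuine libraries. Summed over all members, the level was 14137, 14084 and 13625 CPM in 0Q replicates 1 to 3 and 13769, 12954 and 12375 CPM in 100Q replicates 1 to 3. The first 100Q library therefore lay inside the 0Q range, and the other two lay below it. Of the 61 members, 20 had their lowest level in 100Q replicate 3 and 17 in 100Q replicate 2, whereas 4 had it in 100Q replicate 1. Replicate 3 was the deepest library of all and replicate 2 the shallowest, with 11398835 and 4023956 counts. The part of depth in these levels was not tested. 

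**Figure D1:**
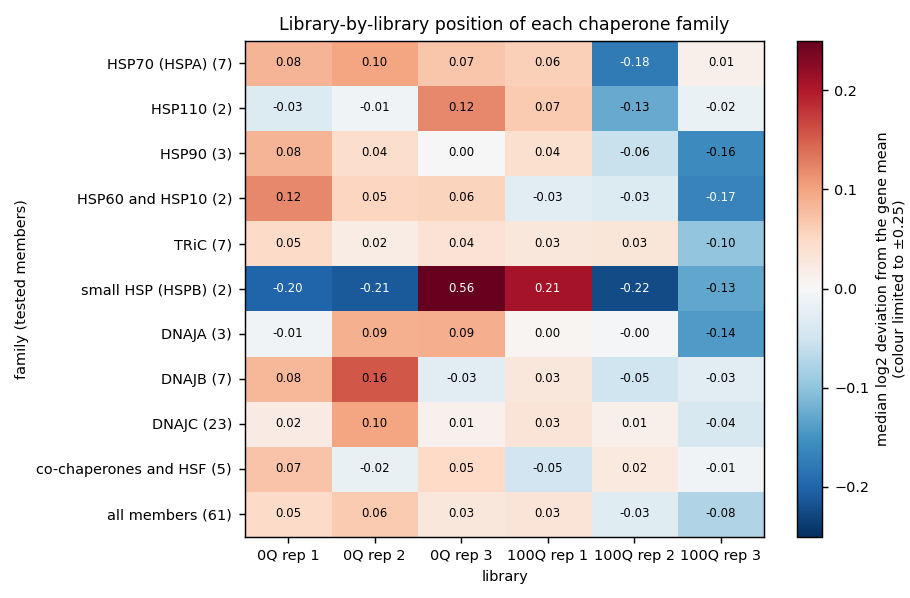
Median log2 deviation of the tested members of each family from each gene's own mean, for the 6 libraries (columns), with the number of tested members in brackets and the value in each cell. Over all members the value falls below 0 in 100Q replicates 2 and 3 (-0.03 and -0.08) and is 0.03 in 100Q replicate 1, like 0Q replicate 3.

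Families differed in how far they leaned. The HSP70 family had a median log2 fold change of -0.17 (6 of 7 tested members negative), HSP60 and HSP10 -0.15 (2 of 2), DNAJA -0.14 (3 of 3) and HSP90 -0.07 (3 of 3). Closer to 0 were HSP110 at -0.05 (2 of 2), TRiC at -0.04 (6 of 7) and DNAJB at -0.04 (4 of 7). The DNAJC family, the largest with 23 tested members, was split evenly, 12 negative and 11 positive, with a median of -0.0079. The co-chaperones and heat shock factors had -0.012 (3 of 5). The 2 tested small heat shock proteins gave -0.16, a value set by HSPB8, which was at only 1.51 to 5.15 CPM and whose 0Q replicate 3 decided the sign (median 0.20 without that library).

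Families of 2 to 7 tested members rest on few genes and few libraries. The HSP70 median was the value of HSPA1B. Its negative members include HSPA1A, whose reads cannot be split from those of HSPA1B with certainty, and HSPA2. Both were low, at 4.96 and 2.65 CPM per kilobase as means of all libraries. For HSP70, dropping 100Q replicate 1 gave a median of -0.31 and dropping 100Q replicate 2 gave -0.05. The HSP60 and HSP10 median was -0.069 after a correction for GC content and transcript length. With 1 library left out at a time, the DNAJA median ran from -0.18 to -0.070, HSP90 from -0.12 to -0.040 and TRiC from -0.098 to -0.024. The medians of HSP110 (-0.092 to 0.0017), DNAJB (-0.062 to 0.019), DNAJC (-0.038 to 0.013) and the co-chaperones and heat shock factors (-0.12 to 0.083) changed sign. Differences between families were described and not tested.

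**Figure D2:**
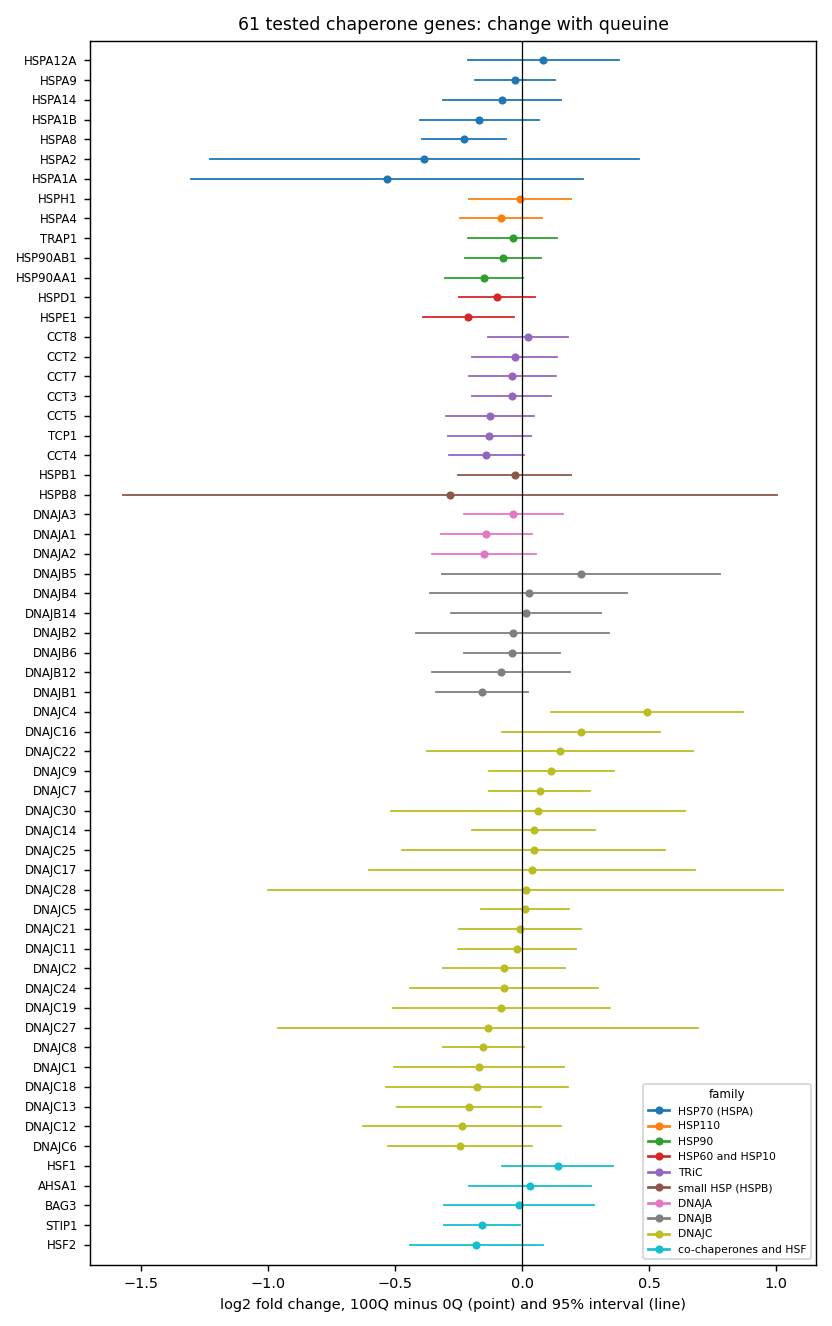
Log2 fold change, 100Q minus 0Q, of each tested member (point) with its 95% interval (line), from edgeR and grouped by family (colour). Most points of the HSP70, HSP110, HSP90, HSP60 and HSP10, TRiC, small HSP and DNAJA families lie left of 0. DNAJB and DNAJC genes, co-chaperones and heat shock factors lie on both sides. The widest intervals belong to genes of low count such as HSPB8 and HSPA1A.

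The promoters of the members were searched for the letters of heat shock elements. RefSeq promoters (GRCh38.p14, 250 bases before to 50 after each listed start) were found for 67 of the 75 members (none for DNAJC1, DNAJC5B, DNAJC22, DNAJC24, HSF1, HSPA12B, HSPA14 and HSPB2) and were searched on both strands for 3 units in a row, GAANNTTCNNGAA, and for 2 units, GAANNTTC or TTCNNGAA; every 3-unit match also holds 2-unit matches. A 3-unit match was present in 7 of the 67 members (10.4%): HSPA8, HSP90AA1, HSP90AB1, HSPD1, HSPA6, DNAJA1 and DNAJB6. Over all 27305 genes with a promoter entry it was present in 166 (0.608%). A 2-unit match in either order was present in 24 of 67 members (35.8%) and in 16.2% of all genes, whereas the CCAAT box, searched in the same windows as CCAAT and ATTGG, was present in 37.3% of members and 39.7% of all genes. The bases before the start are shown for 4 abundant members with 3 units, for the inducible pair HSPA1A and HSPA1B with 2 units, and for HSPA6, which has 3 units but was at or near 0 in these cells. All are written 5′ to 3′ on the gene's strand, and capitals mark the matched letters. Where a promoter holds 3 units, only those are in capitals. Binding of HSF1 was not measured in these libraries.
HSPA8, minus strand, chr11:123062137-123062386: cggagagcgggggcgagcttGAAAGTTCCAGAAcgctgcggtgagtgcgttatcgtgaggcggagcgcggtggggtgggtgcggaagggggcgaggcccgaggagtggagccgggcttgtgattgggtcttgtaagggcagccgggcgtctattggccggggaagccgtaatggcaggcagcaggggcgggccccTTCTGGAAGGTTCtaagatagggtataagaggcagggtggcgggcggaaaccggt
HSP90AA1, minus strand, chr14:102087045-102087294: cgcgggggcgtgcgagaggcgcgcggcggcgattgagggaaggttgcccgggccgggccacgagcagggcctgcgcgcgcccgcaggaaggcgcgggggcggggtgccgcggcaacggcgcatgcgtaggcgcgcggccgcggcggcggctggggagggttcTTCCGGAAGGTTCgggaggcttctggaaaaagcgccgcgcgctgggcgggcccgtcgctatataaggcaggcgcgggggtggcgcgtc
HSP90AB1, plus strand, chr6:44247693-44247942: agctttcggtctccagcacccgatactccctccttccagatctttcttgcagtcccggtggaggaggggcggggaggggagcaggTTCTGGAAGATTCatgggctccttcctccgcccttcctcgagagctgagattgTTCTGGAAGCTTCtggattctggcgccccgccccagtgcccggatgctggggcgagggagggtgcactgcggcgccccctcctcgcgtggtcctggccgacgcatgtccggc
HSPD1, minus strand, chr2:197499841-197500090: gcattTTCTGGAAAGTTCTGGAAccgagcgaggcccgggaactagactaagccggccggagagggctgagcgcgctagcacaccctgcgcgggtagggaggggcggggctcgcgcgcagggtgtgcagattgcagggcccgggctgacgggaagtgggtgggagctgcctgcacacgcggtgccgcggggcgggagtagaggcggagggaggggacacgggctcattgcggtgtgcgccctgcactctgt
HSPA1A, plus strand, chr6:31815293-31815542: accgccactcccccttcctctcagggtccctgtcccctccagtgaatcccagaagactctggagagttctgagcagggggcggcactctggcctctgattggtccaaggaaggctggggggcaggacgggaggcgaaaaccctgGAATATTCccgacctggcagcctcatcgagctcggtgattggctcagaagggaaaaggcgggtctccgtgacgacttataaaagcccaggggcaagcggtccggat
HSPA1B, plus strand, chr6:31827488-31827737: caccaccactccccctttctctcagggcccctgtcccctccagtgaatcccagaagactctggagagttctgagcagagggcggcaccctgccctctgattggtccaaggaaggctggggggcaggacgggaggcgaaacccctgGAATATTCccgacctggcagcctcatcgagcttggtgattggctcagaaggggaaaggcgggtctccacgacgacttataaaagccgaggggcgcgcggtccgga
HSPA6, plus strand, chr1:161524290-161524539: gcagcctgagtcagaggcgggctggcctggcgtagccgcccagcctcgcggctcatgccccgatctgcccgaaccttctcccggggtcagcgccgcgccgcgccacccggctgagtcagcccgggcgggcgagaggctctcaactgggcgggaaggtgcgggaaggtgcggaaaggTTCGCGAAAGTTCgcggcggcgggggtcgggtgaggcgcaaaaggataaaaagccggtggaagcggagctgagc
HSPA8 holds 3-unit matches at 230 to 218 and at 55 to 43 bases before its start. HSP90AA1 has its match at 88 to 76 bases before the start, and HSP90AB1 has its pair at 165 to 153 and 112 to 100 bases before the start printed, which is 1 of its 3 listed starts. That window lies downstream of the canonical HSP90AB1 start at position 44247101, and the windows of the other 2 starts held no match. In HSPD1, 4 alternating units form 2 overlapping 3-unit matches at 245 to 228 bases before the start. HSPD1 and HSPE1 are read away from each other with 539 bases between their starts, so the same units lie 294 to 311 bases before the HSPE1 start and outside the window searched for HSPE1, in which no match was found.

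Tested members with these letter matches leaned lower in 100Q than members without. The 6 tested members with a 3-unit match were all negative, with a median log2 fold change of -0.12, and their summed level was 5744, 5837 and 5634 CPM in 0Q against 5600, 5156 and 4939 CPM in 100Q. The groups of libraries did not overlap in this sum, but the gap was small (5634 against 5600 CPM). HSPA8, HSP90AA1 and HSPD1, which are part of the sum, also had separate groups on their own. The median of these 6 was -0.064 without 100Q replicate 3, and 5 of 6 were negative without 0Q replicate 2. Corrected for GC content and length, their median was -0.076. Of the 18 tested members with at least 2 units, 17 were negative with a median of -0.14, and 7 of the 18 had 100Q values wholly below 0Q. Among these 7, STIP1, CCT4 and DNAJC6 matched only after a listed start, at bases 14 to 21, 39 to 46 and 43 to 50. The 3-unit match of DNAJA1 also lies after its start, at bases 4 to 16. Of the 38 tested members with a promoter entry and no match, 23 were negative with a median of -0.027, and 2 lay wholly below (HSPE1 and DNAJC8). HSPE1 counts here as without a match because the units it shares with HSPD1 lie outside its window. HSPH1, HSPA4, BAG3 and AHSA1, listed below as HSF1 targets, also had no match. The classes thus depend on the window and the exact letters searched. The difference between members with and without a match was described and not tested.

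Outside the chaperones, genes with the motif sat close to the background. Of 1458 other tested genes with at least 2 units, 765 were negative (52.5%), with a median of -0.011, and 74 (5.08%) lay wholly below. With a mean of at least 100 CPM there were 219 such genes, 139 of them negative (63.5%), close to the 59.7% of other genes of that level without a match. Without 100Q replicate 3, the member medians were -0.09 with and 0.0045 without at least 2 units, and without 100Q replicate 2 they were -0.12 and -0.06. With the GC and length correction they were -0.10 and -0.03. Members with the motif were more often abundant, 13 of the 18 with at least 2 units and 13 of the 38 without having a mean of at least 100 CPM. Among those abundant members, 13 of 13 with the motif were negative (median -0.14) and 9 of 13 without it (median -0.04).

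HSPA8 (HSC70), the constitutive cytosolic HSP70, had the lowest unadjusted p of any member. Its level was 1152, 1229 and 1152 CPM in 0Q and 1113, 962 and 941 CPM in 100Q. All 3 queuine libraries lay below all 3 depleted ones, the first of them by little. The log2 fold change was -0.23 ± 0.08 (SE; unadjusted p = 0.011, adjusted p = 0.987, edgeR). The gene lies at chr11:123057489-123063230 and overlaps 3 small nucleolar RNA genes on its own strand, and its 17 listed pseudogenes held counts equal to 0.0695% of its own.

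The inducible cytosolic HSP70 is made from 2 neighbouring genes, HSPA1A and HSPA1B, 9.79 kb apart on chromosome 6. Their coding sequences have 1923 bases each and differ at 4 positions, so the split of reads between them is uncertain. HSPA1B was listed at 1106, 994 and 873 CPM in 0Q and 1056, 821 and 770 CPM in 100Q, and HSPA1A at 17.0, 17.7 and 7.92 CPM and 14.1, 4.02 and 10.7 CPM. Summed, the pair was at 1123, 1012 and 881 CPM in 0Q and 1070, 825 and 780 CPM in 100Q. The groups overlapped, since 0Q itself spread widely and the first 100Q library was the second highest of all. The log2 fold change of the sum was -0.17 with a 95% interval of -0.41 to 0.064 (unadjusted p = 0.14, adjusted p = 0.987, edgeR), and it ran from -0.33 without 100Q replicate 1 to -0.083 without 100Q replicate 3.

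Among the remaining HSP70 genes, groups overlapped throughout. HSPA9, the mitochondrial HSP70 that pulls proteins through the inner membrane, was at 418, 437 and 418 CPM in 0Q and 444, 389 and 414 CPM in 100Q (log2 fold change -0.03 ± 0.07). HSPA14, a ribosome-associated HSP70, had -0.08 ± 0.11. HSPA2 and HSPA12A, named after their values were seen, ranged from 2.26 to 8.80 CPM and from 39.1 to 56.2 CPM over the 6 libraries. Set against each other per kilobase, HSPA8 was 5.37, 5.47 and 5.36 times as abundant as HSPA9 in 0Q and 4.88, 4.81 and 4.42 times in 100Q. That ratio does not depend on library scaling, and its groups did not overlap, but HSPA8 was picked for its difference, so it is a description. HSPA8 over HSPA1B was 1.16 to 1.47 in 0Q and 1.17 to 1.36 in 100Q, which overlapped.

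HSPA4 and HSPH1, the HSP110 exchange factors that reload HSP70 with ATP, had overlapping groups. HSPA4 was at 284, 301 and 321 CPM in 0Q and 297, 287 and 273 CPM in 100Q (log2 fold change -0.08 ± 0.08). HSPH1 was at 173, 169 and 190 CPM and 191, 151 and 185 CPM, with a log2 fold change of -0.01 ± 0.09, whose sign changed with the scaling (0.0098 with library size only).

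The HSP90 pair was the most abundant of all members. HSP90AB1, the constitutive form, stood at 565 CPM per kilobase and HSP90AA1, the stress-inducible form, at 521 CPM per kilobase, as means of the 6 libraries. HSP90AA1 was at 1779, 1798 and 1732 CPM in 0Q and 1719, 1565 and 1496 CPM in 100Q. All 3 queuine libraries lay below the depleted ones, the first by little, and the log2 fold change was -0.15 ± 0.07 (unadjusted p = 0.053). HSP90AB1 was at 1512, 1486 and 1443 CPM in 0Q and 1490, 1388 and 1342 CPM in 100Q, with overlapping groups and -0.07 ± 0.07. Per kilobase the HSP90AA1 to HSP90AB1 ratio was 0.931, 0.958 and 0.950 in 0Q and 0.913, 0.892 and 0.883 in 100Q. The message of the inducible form thus made up slightly less of the pair in each queuine library, and this was not tested. Corrected for GC content and length, the log2 fold changes were -0.11 for HSP90AA1 and -0.058 for HSP90AB1. TRAP1, the mitochondrial HSP90, was at 329, 298 and 300 CPM in 0Q and 313, 319 and 273 CPM in 100Q (-0.04 ± 0.08), which overlapped.

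STIP1 (HOP), the adaptor that holds HSP70 and HSP90 together, had the tightest groups of the members with an unadjusted p under 0.05. It was at 322, 328 and 321 CPM in 0Q and 296, 283 and 291 CPM in 100Q. The gap between the groups was wider than the range of either. The log2 fold change was -0.16 ± 0.07 (unadjusted p = 0.040, adjusted p = 0.987, edgeR). AHSA1, which stimulates the HSP90 ATPase, was at 123, 110 and 97.6 CPM and 114, 129 and 97.9 CPM (0.03 ± 0.11). BAG3, an HSP70 exchange factor linked to autophagy, was at 45.8, 34.2 and 41.6 CPM and 36.2, 43.7 and 40.8 CPM (-0.01 ± 0.14). The sign of both rested on single libraries.

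The heat shock factors themselves had values of opposite sign, neither past the test. HSF1 was at 87.0, 82.8 and 72.0 CPM in 0Q and 95.3, 85.9 and 85.3 CPM in 100Q (log2 fold change 0.14 ± 0.10), and the value was 0.064 without 0Q replicate 3. Corrected for GC content and length, it was 0.086. HSF2 was at 53.2, 65.8 and 67.2 CPM and 48.5, 58.0 and 57.7 CPM (-0.18 ± 0.12). Both pairs of groups overlapped. Listed as HSF1 targets were 17 members: HSPA1A, HSPA1B, HSPA6, HSPA8, HSPH1, HSPA4, HSPB1, HSPD1, HSPE1, HSP90AA1, HSP90AB1, DNAJA1, DNAJB1, DNAJB4, BAG3, STIP1 and AHSA1. Of the 16 tested, 14 were negative, with a median of -0.12, and 6 lay wholly below, against 5.2% of all tested genes and 6.57% of those with at least 100 CPM. That list overlaps the heat shock genes already seen to lean lower in these libraries and is no independent evidence. Among 12 targets and regulators of HSF1 outside the family rule, 6 of 10 tested were negative with a median of -0.04, and none had an unadjusted p under 0.05. The most abundant of them, UBB, which encodes ubiquitin, had -0.08 ± 0.07.

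**Figure D3:**
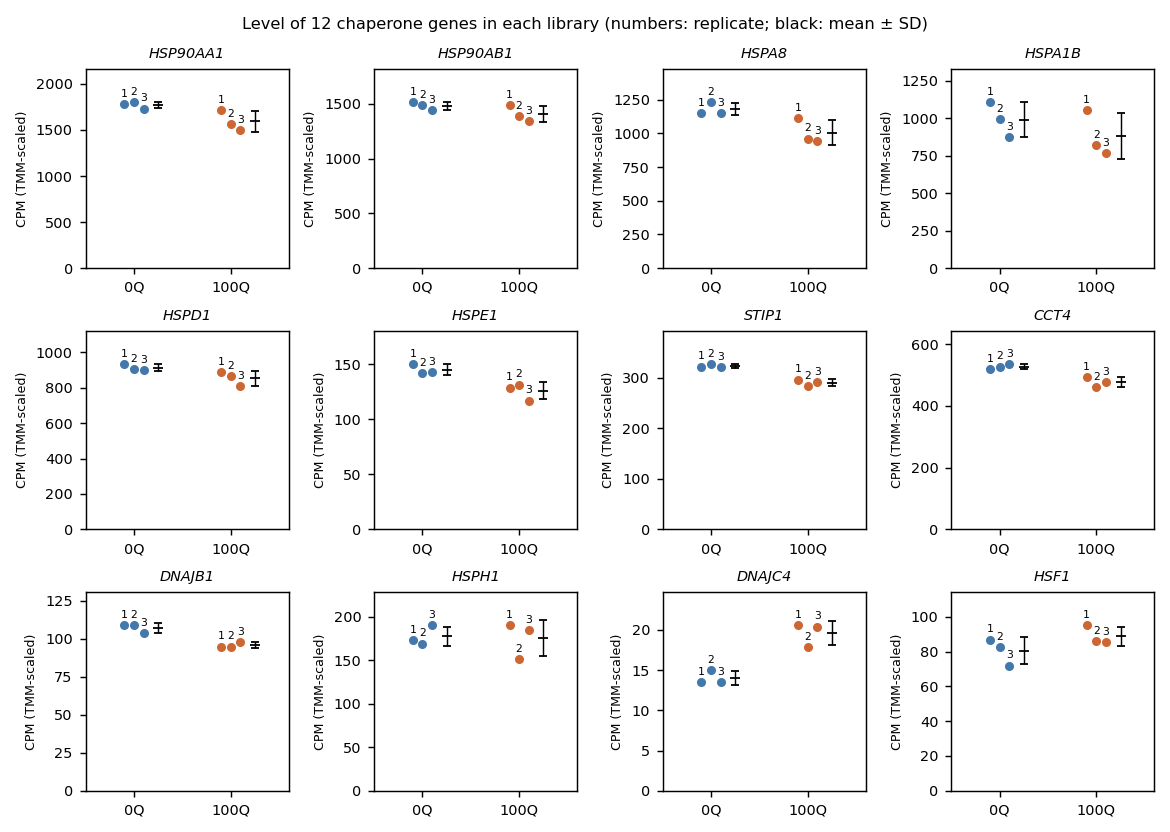
Level in CPM of 12 members in each library (points, numbered by replicate), with the mean ± SD of each group in black (n = 3 per group); every axis starts at 0. STIP1, HSPE1, CCT4, DNAJB1, HSPA8, HSP90AA1 and HSPD1 have separate groups, lower in 100Q. Their gaps are small against axes that start at 0. DNAJC4 is higher in 100Q, and HSPH1, HSPA1B, HSP90AB1 and HSF1 overlap.

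HSPD1 (HSP60) and HSPE1 (HSP10) form the folding chamber of the mitochondrial matrix and are read in opposite directions from neighbouring starts. HSPE1 was at 151, 142 and 143 CPM in 0Q and 129, 132 and 117 CPM in 100Q. HSPD1 was at 934, 906 and 899 CPM in 0Q and 889, 864 and 808 CPM in 100Q. For both genes all 3 queuine libraries lay below the depleted ones. The log2 fold change was -0.21 ± 0.08 for HSPE1 (unadjusted p = 0.024, adjusted p = 0.987, edgeR) and -0.10 ± 0.07 for HSPD1 (unadjusted p = 0.18). Per kilobase, HSPE1 stood at 0.650, 0.631 and 0.643 of HSPD1 in 0Q and at 0.585, 0.614 and 0.585 in 100Q.

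The HSPE1 value was smaller after a joint correction for GC content and length. Its transcript has 557 bases, and with a correction for GC content and length its log2 fold change was -0.081 and that of HSPD1 -0.057. The HSPE1-MOB4 readthrough gene held counts equal to 1.52% of those of HSPE1. Of 10 members that act in mitochondria 9 were tested and 7 were negative, with a median of -0.03. A list of 12 other genes, mitochondrial proteases and HSP70 partners together with the cytosolic HSPA4L, had 7 negative and a median of -0.04, and none had an unadjusted p under 0.05. For 1 of these 12 the 100Q values lay wholly below, against 5.2% of all tested genes. LONP1 and YME1L1, the most abundant genes of that list and both proteases, had -0.03 ± 0.11 and -0.04 ± 0.08.

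TRiC is a double ring in which each of 8 different subunits occurs once per ring and folds actin and tubulin. Their messages were not equal: per kilobase, CCT3 was highest at 388 CPM, followed by CCT7 at 287, CCT8 at 222, CCT4 at 212, TCP1 at 197, CCT2 at 145, CCT6A at 137 and CCT5 at 126 CPM, as means of the 6 libraries. Neighbours in that order from CCT8 to TCP1 and from CCT2 to CCT5 overlapped across libraries. CCT3 stood above all others in each library, with 393 ± 6.98 CPM per kilobase in 0Q (SD, n = 3) and 382 ± 28.1 in 100Q.

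CCT4 was the TRiC subunit with separate groups. It was at 518, 527 and 536 CPM in 0Q and 494, 462 and 478 CPM in 100Q (log2 fold change -0.14 ± 0.07, unadjusted p = 0.059). TCP1 was at 485, 489 and 478 CPM and 484, 409 and 434 CPM (-0.13 ± 0.08), where the first queuine library lay among the depleted ones. The other subunits of the rule ran from -0.13 (CCT5) to 0.02 (CCT8), and CCT6A had -0.08 ± 0.07. CCT2, CCT5 and CCT8 are named here to complete the ring, after their values were seen. Of 10 TRiC partners, CCT6A with the prefoldin subunits and phosducin-like proteins that deliver or regulate its substrates, 8 were negative with a median of -0.05. None had an unadjusted p under 0.05, and the prefoldin subunit VBP1 had -0.11 ± 0.09.

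J-domain proteins pick the substrates of HSP70. Among the DNAJA genes, DNAJA1 was at 212, 227 and 233 CPM in 0Q and 214, 213 and 185 CPM in 100Q (-0.14 ± 0.08), and its groups overlapped in the lowest 0Q library. DNAJA2 had -0.15 ± 0.10, and DNAJA3, the mitochondrial form, had -0.03 ± 0.09 and changed sign without 100Q replicate 3. In the DNAJB family, DNAJB1 (HSP40), the stress-inducible partner of HSPA1A, was at 109, 109 and 104 CPM in 0Q and 94.9, 94.9 and 98.1 CPM in 100Q. The groups did not overlap, and unlike HSPA8 the highest queuine library was replicate 3 (-0.16 ± 0.09, unadjusted p = 0.084). DNAJB6, which suppresses aggregation, was at 154, 190 and 176 CPM and 174, 164 and 167 CPM (-0.04 ± 0.09), and it carries a 3-unit match.

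DNAJC4 was the member with the highest log2 fold change. This J-domain gene was at 13.5, 15.0 and 13.5 CPM in 0Q and 20.6, 17.8 and 20.4 CPM in 100Q. All 3 queuine libraries lay above the depleted ones. The log2 fold change was 0.49 ± 0.18 (95% interval 0.11 to 0.87, unadjusted p = 0.014, adjusted p = 0.987, edgeR), and leaving out 1 library at a time gave 0.46 to 0.55. The gene lies at chr11:64230278-64234286, 25.7 kb from STIP1, which leaned the other way. It overlaps NUDT22 on the same strand and an unnamed gene on the other strand, and the strand setting of the counting is not given in the sources used here, so reads of these genes cannot be told apart with certainty.

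The other DNAJC genes fell on both sides. DNAJC8, a splicing-associated J protein and the most abundant of the family per kilobase (118 CPM), was at 220, 227 and 213 CPM in 0Q and 202, 199 and 193 CPM in 100Q (-0.15 ± 0.07, unadjusted p = 0.059). DNAJC6 (auxilin), which uncoats clathrin vesicles, was at 34.3, 34.3 and 34.7 CPM and 28.5, 26.9 and 31.3 CPM (-0.24 ± 0.13, unadjusted p = 0.086). Both had separate groups. DNAJC16, of the endoplasmic reticulum, was at 23.6, 25.2 and 27.7 CPM and 33.1, 27.9 and 28.9 CPM (0.23 ± 0.15), with groups that barely parted. DNAJC7, which bridges HSP70 and HSP90, had 0.07 ± 0.09, and DNAJC5, a chaperone of synaptic vesicles, had 0.01 ± 0.08. The 5 J-domain genes listed above as outside the cytosol and mitochondria had a median of 0.015, with 2 of 5 negative.

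The HSP90 and HSP70 co-chaperones beyond the symbol rule gave no common direction. Of 20 such genes all were tested, 11 were negative, the median was -0.03, and none had an unadjusted p under 0.05. PTGES3 (p23), which closes the HSP90 clamp, was at 569, 552 and 544 CPM in 0Q and 534, 487 and 476 CPM in 100Q (-0.15 ± 0.07, unadjusted p = 0.051). Its 100Q values lay wholly below, the only gene of that list for which they did. ST13, the HSP70 interacting protein, had -0.06 ± 0.08.

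**Figure D4:**
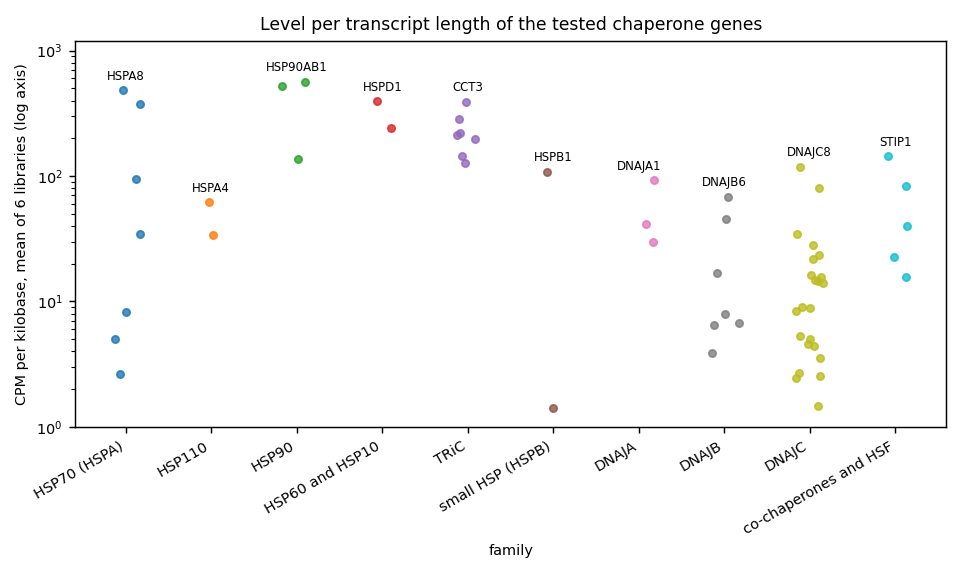
Level per kilobase of transcript of each tested member (mean of 6 libraries, log axis) by family, with the highest of each family named. HSP90AB1, HSP90AA1, HSPA8, HSPD1, CCT3 and HSPA1B stand highest, and DNAJC genes spread from about 1.47 to 118 CPM per kilobase.

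Chaperone messages differed widely in level. By level per kilobase, 6 members ranked among the top 1% of tested genes (149 genes): HSP90AB1, HSP90AA1, HSPA8, HSPD1, CCT3 and HSPA1B. DNAJC genes ran from 1.47 to 118 CPM per kilobase. At the other end, 14 members were not tested, and DNAJB8, DNAJC5B and HSPB7 had 0 counts in all 6 libraries. HSPA6, a strictly stress-inducible HSP70 with a 3-unit match, had 0, 5 and 3 counts in 0Q and 0 in each 100Q library. These counts are too few to compare the groups.

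Queuosine is read at the codons of 4 amino acids. Tyrosine, histidine, asparagine and aspartate codons made up a median of 14.6% of codons in the tested members and 13.8% in all tested protein-coding genes with a coding sequence. The share of those codons that end in C was 45.5% in the members and 55.6% over all, and transcript GC content was 45.3% and 48.6%. Over the 61 members, Spearman's rho of the log2 fold change was -0.085 with the share of these codons, 0.085 with the share ending in C, and 0.15 with GC content. Over all such genes the values were -0.091, 0.14 and 0.18. These are correlations across genes of the same 6 libraries and are given as descriptions, since genes are not independent replicates and codon endings and GC content go together. HSPA1A and HSPA1B had 93.8% of these codons ending in C, and HSPD1 had 28.4%.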

How the data were processed

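Groups and replicate numbers came from the sample titles. The authors deposited 1 table of estimated counts by Ensembl gene with no normalization. FastQC, STAR and RSEM are named without versions in the submitters' processing notes, and hg38 in the series design. For the annotation and strand setting of the counting, the sources used here say nothing. After rounding, the counts were tested for 100Q minus 0Q with edgeR 4.0.16 (R 4.3.3): TMM scaling, filterByExpr with a minimum count of 10, quasi-likelihood fit on all 6 libraries, and Benjamini-Hochberg adjustment over 14905 genes. The code was tested on simulated data.

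Symbols, coordinates, transcript lengths and coding sequences came from GENCODE 44 (62541 of 63086 identifiers matched), and promoters from RefSeq (GRCh38.p14). Levels between genes are CPM per kilobase of the canonical transcript. Members, lists and tests were chosen with earlier results of these data known. Named genes are members with an unadjusted p under 0.05, the 4 most abundant of each family, the 3 highest and 3 lowest fold changes at 10 CPM or more, a fixed list of well-known chaperones, and the 2 most abundant genes of each partner list; other names were chosen after their values were seen. One gene named by this rule is not reported here. Alternatives were RLE scaling, library size alone, no filter, a mean count of 50, DESeq2 1.42.0, limma-voom 3.58.1, unrounded counts, a replicate block, a GC and length correction (mgcv 1.9.3), each library left out, and, added after the data were seen, pseudogene and readthrough counts added to their parents.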

Additional observations from a re-analysis of the deposited data

How the results depend on the processing

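Under all 17 alternatives 0 members were called, and the smallest adjusted p of a named gene was 0.478. Of 59 to 61 tested members 38 to 46 were negative, and the median ran from -0.069 to -0.025; with no filter, 49 of 72 were negative with a median of -0.066. The count of members at an unadjusted p under 0.05, 4 in edgeR, was 9 of 72 with no filter on low counts, 7 with limma-voom and 2 to 6 with 1 library left out. The count of members whose groups do not overlap, 11 with all libraries, was 15 to 20 with 1 library left out, where fewer values have to separate, and 8 with the GC and length correction. No share of all tested genes is given under these alternatives, so the counts cannot be set against a background. The deviations of same-numbered libraries correlated at 0.00143, -0.0204 and 0.0813, and those of differently numbered ones at -0.0856 to 0.0691. Whether same-numbered libraries were handled together cannot be told from these values. With the replicate as a block, 6 members had an unadjusted p under 0.05 and 0 were called. The sum of HSPA1A and HSPA1B was not refitted with the GC and length correction, unrounded counts or added pseudogenes.

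Of 47 named genes, 31 kept their sign throughout and 16 changed it at least once, all with log2 values near 0 except HSPB8. AHSA1 was -0.0049 with limma-voom. BAG3 was 0.0080 with library size only. DNAJC5 was -0.031 once corrected for GC content and length and -0.032 with the block besides. HSPH1 was 0.0098 with library size only, 0.00088 with limma-voom, 0.026 once corrected for GC content and length and 0.021 with the block besides. With 1 library left out the log2 fold change ran from -0.066 to 0.14 for AHSA1, from -0.12 to 0.083 for BAG3, from -0.097 to 0.011 for CCT3, from -0.098 to 0.029 for CCT7, from -0.10 to 0.034 for DNAJA3, from -0.18 to 0.0013 for DNAJB12, from -0.093 to 0.098 for DNAJB14, from -0.12 to 0.032 for DNAJB6. It ran from -0.0074 to 0.027 for DNAJC5, from -0.078 to 0.014 for HSPA9, from -0.13 to 0.032 for HSPB1, from -0.65 to 0.45 for HSPB8, from -0.069 to 0.079 for HSPH1, from -0.14 to 0.067 for LONP1, from -0.081 to 0.034 for TRAP1, from -0.11 to 0.00091 for YME1L1. The causes were not tested. Intervals were widest for genes of a few CPM, such as HSPB8.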

Other observations

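The 14 members with too few counts to be tested include 5 of the 7 small heat shock protein genes, most of which are known from muscle, heart or testis. HSPA12B, an atypical HSP70 known from endothelium, was counted 8, 23 and 7 times in the 0Q libraries and 1, 1 and 2 times in those of 100Q, or 38 against 4. Scaled to library totals, the ratio of 0Q over 100Q was 8.56, with a 95% interval of 3.08 to 33.0 that covers counting error only, and 23 of the 38 counts came from 0Q replicate 2. Of the endothelial markers, CDH5 was at 0 in all libraries. Without TMM scaling, PECAM1 was at 0.41 CPM in 0Q replicate 1, 0.26 CPM in 100Q replicate 3 and 0 elsewhere. DNAJB13, a J protein of sperm flagella and cilia, had 0 counts in 0Q and 11.4 estimated counts in 100Q, 7 of them in replicate 2. HSPB2 was counted 0 times in the depleted libraries and 0, 3 and 6 times in those with queuine. HSPB3 had 4 counts in a single depleted library and 0 in all others. DNAJA4 had 18 and 14.4 counts, DNAJC5G 17 and 15, DNAJC15 15 and 9, DNAJB7 11.2 and 6.41, HSPB9 8 and 9, and HSPB6 0 and 2, in 0Q and 100Q. These genes were named after their values were seen.

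DNAJC25 overlaps the readthrough gene DNAJC25-GNG10, which held estimated counts equal to 95.2% of those of DNAJC25, so its level depends on how reads were divided between both. For the other members, pseudogenes named after them held at most 1.17% of the parent's counts.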
